A study of Homo sapiens with 8 samples.

Results

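Interferon-stimulated genes are genes whose transcripts accumulate when a cell senses interferon, and 38 of them were followed here across sorted populations of 4 human tumour cell lines. Each gene was taken from the probe sets whose annotation names it alone, and the brightest of these by mean over all arrays would stand for a gene with several. A probe set was found for 37 of the 38 genes, among 18417 genes named in this way, and each of the 37 had 1. The expression of STAT2 is not analysed here, and this gene enters only the promoter search.

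The 8 Affymetrix Human Gene 1.0 ST arrays, which summarise several short probes spread along a transcript into 1 value per probe set, carried total RNA of COLO741, SW620, HT29 and HCT116 cells. Each line had been sorted by flow cytometry with an antibody against ABCB5, a transporter of the ATP-binding cassette family, into an ABCB5-positive and an ABCB5-negative population, which gave 4 arrays per group. All 8 populations came from cells grown in RPMI medium with serum and antibiotics, and the labels name no interferon, drug or gene alteration in any of them. The labels describe each line as colon carcinoma, and the 2 arrays of a line are sorted parts of that line with no repeat of the sort.

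Interferons are secreted proteins that bind receptors on the cell surface and set off kinases inside the cell. For type I and type III interferons the kinases JAK1 and TYK2 activate STAT proteins, which join IRF9 into the factor ISGF3. ISGF3 binds a DNA element called the interferon-stimulated response element, or ISRE. Type II interferon acts through another element, the gamma-activated site, or GAS. The products of the genes switched on in this way sense viral nucleic acids, block viral entry and replication, or feed back on the pathway, and tumour cells can express them without added interferon.

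The promoters of these genes were set beside the measurements, because the element that the factors read lies there. Windows from 250 bases before to 50 bases after each start site came from RefSeq (GRCh38.p14) and were held for 32 of the 38 genes; OASL, MX2, IRF7, IFIT2, OAS2 and USP18 had none. They were searched for the ISRE core, GAAA followed by any pair of bases and GAAA again, or TTTC, any pair of bases and TTTC on the other strand, and for the GAS form TTCNNNGAA, which reads alike on both strands. The ISRE core was found for 21 of the 32 genes, or 65.6%, and for 4.38% of the 27305 genes with a window. The GAS form was found for 10 of the 32, or 31.2%, and for 9.38% of all genes. A match of one form may overlap a match of the other, as in IFI27 and BST2, and is a description of the letters only. The 200 bases before a start site are printed for the members IFI44, IFI6 and HERC5, which were among the 8 of smallest p between the populations and held an ISRE core, with each core in capitals.
IFI44, chr1:78649589-78649788, plus strand: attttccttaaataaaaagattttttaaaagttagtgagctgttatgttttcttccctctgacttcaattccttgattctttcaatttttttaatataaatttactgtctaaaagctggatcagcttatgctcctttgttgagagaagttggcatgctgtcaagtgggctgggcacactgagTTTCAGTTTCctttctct
IFI6, chr1:27672193-27672392, minus strand: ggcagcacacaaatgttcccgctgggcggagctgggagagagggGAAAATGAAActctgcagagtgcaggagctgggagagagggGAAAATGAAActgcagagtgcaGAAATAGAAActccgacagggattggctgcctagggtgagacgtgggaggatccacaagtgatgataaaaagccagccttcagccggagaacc
HERC5, chr4:88456919-88457118, plus strand: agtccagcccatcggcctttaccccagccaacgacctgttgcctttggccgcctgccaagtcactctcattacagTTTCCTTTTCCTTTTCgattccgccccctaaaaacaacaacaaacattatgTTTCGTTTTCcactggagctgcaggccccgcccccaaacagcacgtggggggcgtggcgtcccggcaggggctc
IFI6 holds 3 cores in this stretch and HERC5 holds overlapping cores further from its start site and another nearer to it. IFI44 holds 1, close to the start site.

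Shorter stretches are printed for 4 members, chosen after their values were seen, to show how the cores are spaced. Each has 10 bases on either side of the cores, which are again in capitals; DDX60 holds another core nearer its start site that is not shown.
ISG15, chr1:1013374-1013409, plus strand: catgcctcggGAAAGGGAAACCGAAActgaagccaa
IFIT1, chr10:89392497-89392539, plus strand: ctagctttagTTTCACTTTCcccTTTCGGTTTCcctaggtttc
BST2, chr19:17405735-17405770, minus strand: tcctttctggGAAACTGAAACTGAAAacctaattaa
DDX60, chr4:168318821-168318850, minus strand: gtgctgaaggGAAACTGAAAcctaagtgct
In ISG15 and BST2 the cores overlap, so that 3 GAAA units follow one another, while IFIT1 holds 2 separate cores on the other strand. No ISRE core lay in the windows of IFI35, IFI16, OAS1, XAF1, STAT2, IRF1, IRF9, HERC6, SAMD9L, CMPK2 or SAMHD1, which says only that these letters are not in this window.

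**Figure D1:**
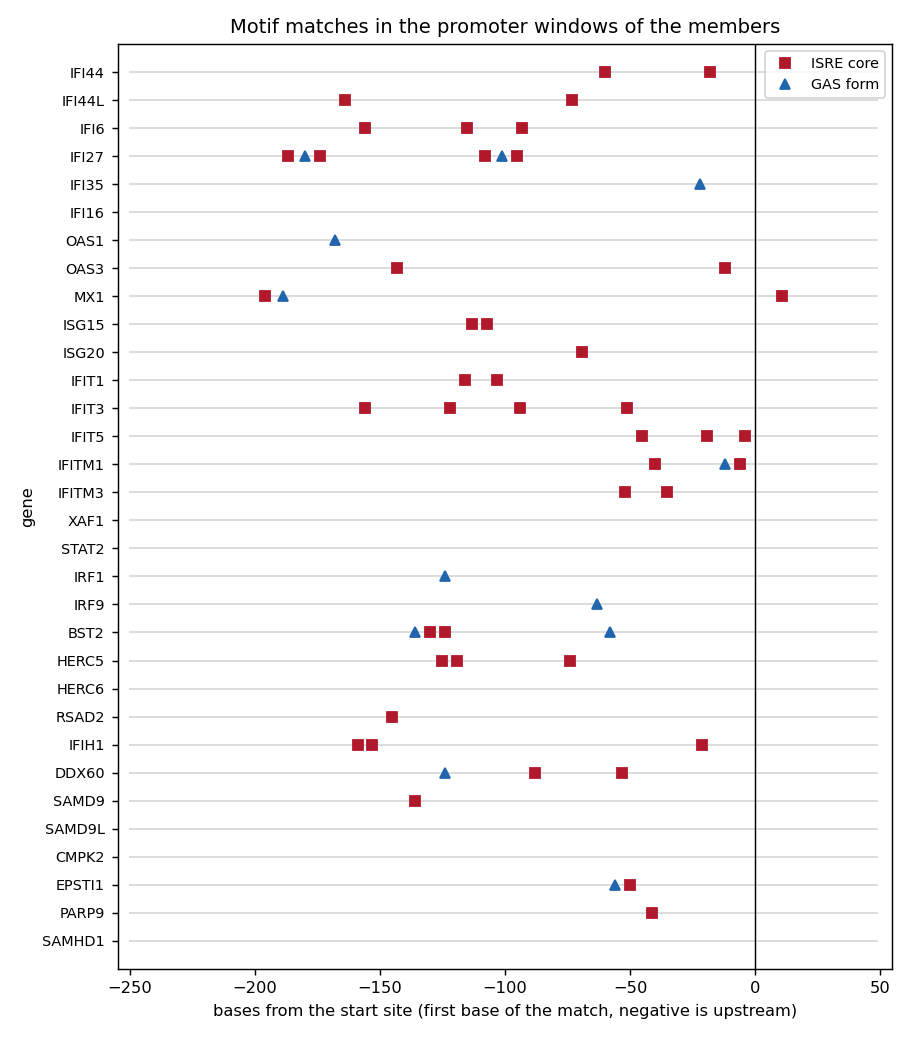
Positions of ISRE core matches (squares) and GAS form matches (triangles) in the promoter windows of the 32 genes that have one, with bases from the start site on the horizontal axis and 1 gene per row; a gene with several annotated start sites shows the matches of all its windows. Most matches lie upstream of the start site at 0, and 11 rows hold no square.

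All values are log2 expression, so a difference of 1 is a doubling, and levels are set against each other only within a gene. Probe sets of olfactory receptor genes, which these cells are not known to use, gave the background, with a median of 5.73 and a 95th percentile of 7.50. Of the 37 genes, 34 had a mean above that median and were tested, while IFI44L, RSAD2 and EPSTI1 were below it. In 15 of the 37 genes all 8 arrays exceeded 7.50. In 5 of them, namely IFI44L, OAS2, IFIT2, RSAD2 and EPSTI1, all 8 arrays lay below 7.50, so that differences in these rest on dim signals.

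The line labels and sort labels were checked against marker genes. COLO741 had all 7 measured melanocyte markers above 7.50, against 2 in SW620, 2 in HT29 and 4 in HCT116. MLANA was at 13.49 and 13.24 in COLO741 and between 5.75 and 6.44 elsewhere, a pattern that goes against the label of colon carcinoma. MC1R was an exception, at 8.17 and 8.40 in COLO741 and at 8.67 and 8.81 in SW620. Of 12 colon epithelium markers, 6 exceeded 7.50 on both COLO741 arrays, against 9 in SW620, 11 in HT29 and 8 in HCT116. KRT18, among the 6, was at 11.71 and 11.94 in COLO741 and between 14.02 and 14.66 elsewhere. CDX1, another of them, lay between 8.53 and 8.92 on all 8 arrays. EPCAM was at 6.43 and 5.36 in COLO741 where the other lines had 13.32 to 13.77. The line is called COLO741 throughout. The transcript of ABCB5 was at 9.42 in the array of COLO741 labelled ABCB5-negative and at 8.14 in the one labelled ABCB5-positive, opposite to the labels, and at 5.24 to 5.69 in the 6 other arrays. Over the 4 lines the ABCB5 difference was -0.25 ± 0.70 (SD, n = 4), with an exact two-sided permutation p of 0.75 where 0.125 is the smallest possible; without COLO741 it was 0.088. ABCB5-positive and ABCB5-negative below are therefore the names on the labels. In SW620, 7 of 16 measured leukocyte markers were at least 1.5-fold higher in the array labelled ABCB5-positive, among them CYBB at 6.06 and 9.28, FCER1G at 6.48 and 8.93 and PTPRC at 4.87 and 6.96. The median difference of the 16 markers was 0.57 in this line, -0.05 in COLO741, 0.08 in HCT116 and -0.10 in HT29. Their summed log2 level was 118 to 128 in the ABCB5-negative arrays and 118 to 135 in the ABCB5-positive arrays, of which SW620 was the highest. The T cell markers CD3D and CD3E stayed between 6.28 and 6.90 in all 8 arrays. In bulk samples like these, fewer cells of a type and less RNA per cell cannot be told apart.

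The first comparison asked whether the genes differed between cells labelled ABCB5-positive and ABCB5-negative. Pairs of values are given in the order negative, positive. Several interferon-stimulated genes were higher on the array labelled ABCB5-positive in most lines, with differences that mostly stayed under a doubling, and no gene passed the test. The mean difference was above 0 in 29 of the 34 tested members (85.3%), against 48.0% of all genes tested. The median of the members was 0.14, where the median of all 16910 genes was -0.0047. Of the members, 9 (26.5%) were higher in all 4 lines, against 6.39% of all genes, and 1, ISG20, was lower in all 4, against 6.98%.

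By limma's moderated test with the line as a block and Benjamini-Hochberg adjustment over all 16910 genes, 0 of the 34 members and 0% of all genes were called at an adjusted p under 0.05. At an unadjusted p under 0.05 there were 10 members (29.4%), against 4.40% of all genes. All 10 were higher on the arrays labelled ABCB5-positive, a direction that held 2.62% of all genes, and 0 were lower, against 1.78%. Every one of the 10 had an adjusted p of 0.898. Without COLO741, the line whose ABCB5 levels oppose its labels, the count was 7 and the member median 0.14. The count was 1 with the line left out of the model and 4 of 22 when dimmer genes were left out. The members were proposed with such results in view, and neither the count nor the median was tested against other genes.

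**Figure D2:**
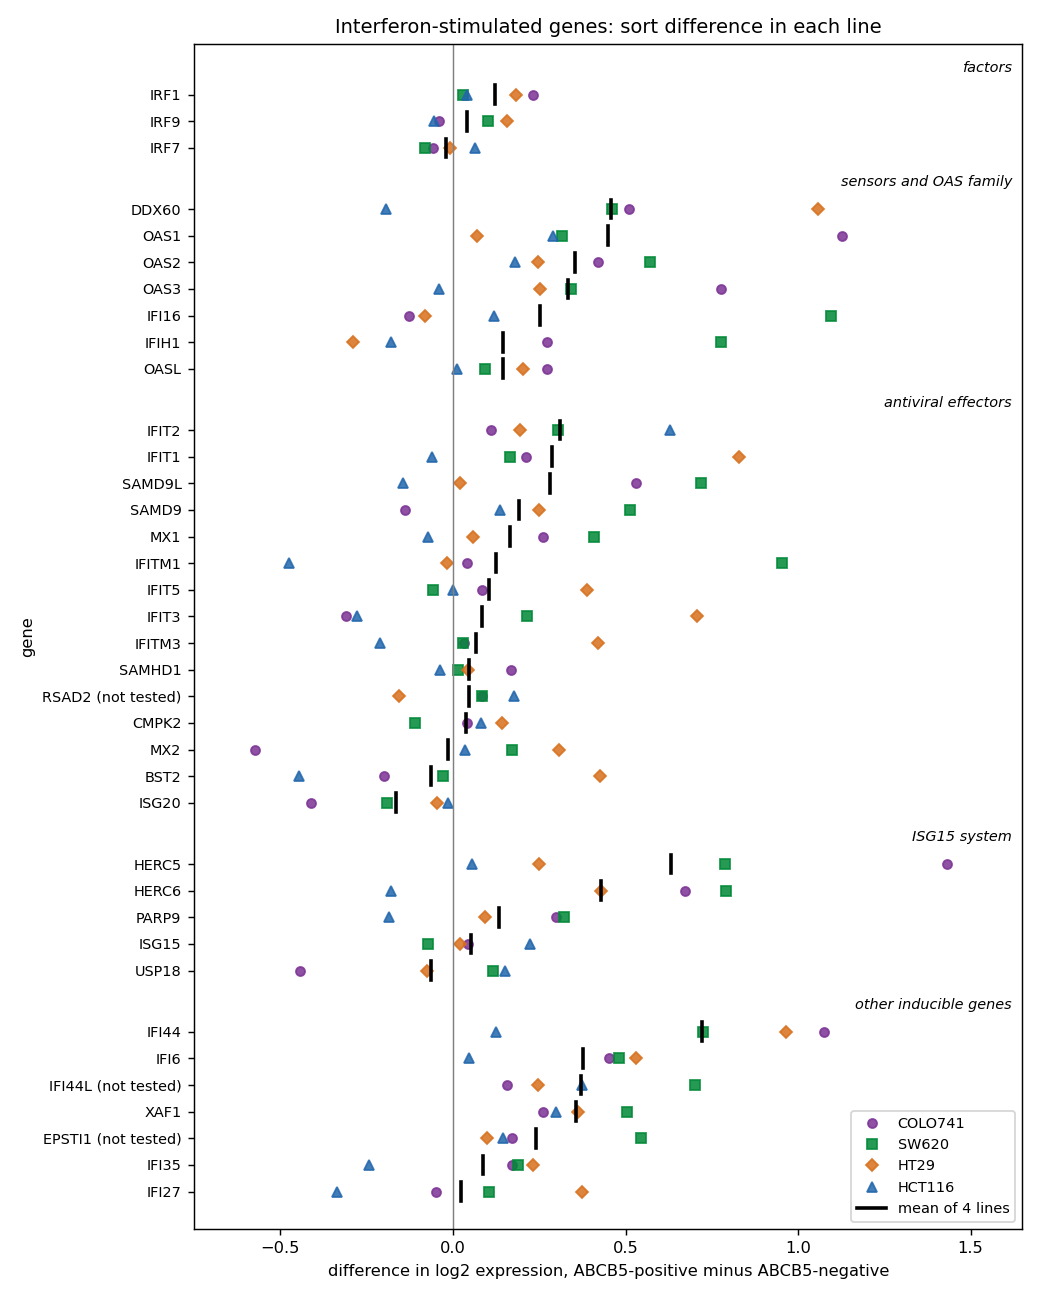
Difference in log2 expression, ABCB5-positive minus ABCB5-negative, for each of the 37 genes with a probe set, grouped by role, with 1 symbol per line and a bar at the mean over the 4 lines. The largest mean is that of IFI44 at 0.72, and most means lie between 0 and 0.5.

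Among the inducible genes without a single well-defined role, all 5 tested members had a mean difference above 0, with a median of 0.36, and 3 had an unadjusted p under 0.05. IFI44, a cytoplasmic protein found with hepatitis virus infection, was at 7.63 on the array labelled ABCB5-negative and 8.70 on the one labelled ABCB5-positive in COLO741, at 4.70 and 5.43 in SW620, at 5.56 and 6.52 in HT29 and at 4.77 and 4.90 in HCT116. It was higher on all 4 arrays labelled ABCB5-positive, but the groups overlap, and only the COLO741 arrays exceeded 7.50. The mean difference was 0.72 ± 0.42 (SD, n = 4). IFI44 was the member with the largest mean difference.

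IFI6, a small mitochondrial protein that counters cell death, was at 10.93 and 11.39 in COLO741, at 10.49 and 10.97 in SW620, at 8.69 and 9.21 in HT29 and at 10.03 and 10.08 in HCT116. The differences in COLO741, SW620 and HT29 were nearly alike and that in HCT116 was small, and the groups overlap. The mean difference was 0.38 ± 0.22 (SD, n = 4), or 1.30-fold. XAF1, which binds the inhibitor of apoptosis XIAP, was at 6.92 and 7.18 in COLO741, at 7.23 and 7.73 in SW620, at 6.89 and 7.26 in HT29 and at 7.08 and 7.37 in HCT116. Its mean difference of 0.36 ± 0.11 (SD, n = 4) varied least relative to its size, although 7 of its 8 values lay below 7.50. IFI27 had the smallest mean of this group, at 0.02 ± 0.30 (SD, n = 4). Of the members below the filter, IFI44L had a mean difference of 0.37 ± 0.24 and EPSTI1 one of 0.24 ± 0.21 (SD, n = 4), both higher in all 4 lines at levels not above 6.27.

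The sensors of viral nucleic acid and the OAS family, with enzymes that make short adenylate chains in response to double-stranded RNA, had means above 0 in 7 of 7 genes, with a median of 0.33. OAS1 was at 8.76 and 9.88 in COLO741, at 9.21 and 9.53 in SW620, at 9.97 and 10.04 in HT29 and at 8.003 and 8.29 in HCT116. It was higher in all 4 lines and most so in COLO741, and the groups overlap. The mean difference was 0.45 ± 0.46 (SD, n = 4), or 1.37-fold, and 0.22 ± 0.14 (SD, n = 3) without COLO741. OAS2 was at 6.11 and 6.53 in COLO741, at 6.58 and 7.15 in SW620, at 6.44 and 6.69 in HT29 and at 6.21 and 6.39 in HCT116. Its mean difference was 0.35 ± 0.18 (SD, n = 4), with every array dim. OAS3 and DDX60, a helicase-like protein that promotes RNA sensing, were the other 2 members of this group at an unadjusted p under 0.05. OAS3 had a mean difference of 0.33 ± 0.34 (SD, n = 4), which was 0.18 without COLO741. DDX60 had 0.46 ± 0.51 (SD, n = 4), the largest mean of the group, which was 0.26 without HT29. OASL had the smallest, at 0.14 ± 0.12 (SD, n = 4).

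IFI16, a sensor of DNA, and IFIH1, the RNA sensor also called MDA5, were led by SW620. IFI16 was at 5.17 and 6.27 in SW620, with differences of -0.13 in COLO741, -0.08 in HT29 and 0.12 in HCT116. IFIH1 was at 8.05 and 8.83 in SW620, with differences of 0.27 in COLO741, -0.29 in HT29 and -0.18 in HCT116. The mean difference was 0.25 for IFI16 and 0.14 for IFIH1 over the 4 lines, and -0.03 and -0.07 without SW620. The SW620 array that was higher here is the one with the leukocyte markers higher, and their part in the result was not tested.

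The direct antiviral effectors gave a mixed picture. Of 14 tested, 11 had a mean above 0 and 3 below, the median was 0.09, and IFIT2 alone had an unadjusted p under 0.05. IFIT2, which binds viral RNA with its partners IFIT1 and IFIT3, was at 7.16 and 7.27 in COLO741, at 6.29 and 6.60 in SW620, at 7.09 and 7.29 in HT29 and at 6.16 and 6.79 in HCT116. It was higher in all 4 lines, and it was the member that differed most in HCT116. The mean difference was 0.31 ± 0.23 (SD, n = 4) and 0.20 without HCT116. IFIT1 and IFIT3 were led by HT29 instead, with differences of 0.83 and 0.71 there, and IFIT3 was lower in COLO741 and HCT116.

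The lowest mean of the effectors was that of ISG20, an exonuclease, at -0.17 ± 0.18 (SD, n = 4). The GTPases MX1 and MX2, which trap viral particles, had mean differences of 0.16 ± 0.21 and -0.01 ± 0.39 (SD, n = 4). IFITM1, a membrane protein that hinders viral entry, differed by 0.95 in SW620 and by -0.47 in HCT116, so that its mean of 0.13 ± 0.60 (SD, n = 4) was -0.15 without SW620. RSAD2, also called viperin, had dim values on all arrays, between 5.39 and 5.67.

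The group of ISG15, a small modifier like ubiquitin, with HERC5, HERC6, USP18 and PARP9, had means above 0 in 4 of 5 genes, with a median of 0.13. HERC5, the main ligase for ISG15, was at 7.75 and 9.18 in COLO741, at 5.53 and 6.32 in SW620, at 5.88 and 6.13 in HT29 and at 8.29 and 8.34 in HCT116. It was higher in all 4 lines by amounts from 0.06 to 1.43, so that its mean of 0.63 ± 0.62 (SD, n = 4) was 0.36 without COLO741. HERC6, its neighbour in the HERC family, was at 8.53 and 9.21 in COLO741, at 8.46 and 9.25 in SW620, at 7.39 and 7.82 in HT29 and at 8.64 and 8.46 in HCT116. It was higher in 3 lines and lower in HCT116, with a mean of 0.43 ± 0.43 (SD, n = 4). ISG15 itself differed by 0.05 ± 0.12 (SD, n = 4). USP18, which removes ISG15 and blocks the type I receptor, was the lowest of this group at -0.06 ± 0.27 (SD, n = 4).

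The transcription factors among the members differed least. IRF1 was at 8.50 and 8.73 in COLO741, at 9.56 and 9.59 in SW620, at 9.79 and 9.97 in HT29 and at 9.31 and 9.35 in HCT116, with a mean difference of 0.12 ± 0.10 (SD, n = 4). IRF7, which drives interferon genes themselves, was at 8.87 and 8.81 in COLO741, at 8.94 and 8.86 in SW620, at 9.47 and 9.46 in HT29 and at 8.88 and 8.94 in HCT116, with a mean difference of -0.02 ± 0.06 (SD, n = 4). IRF9, the DNA-binding part of ISGF3, was at 8.33 and 8.29 in COLO741, at 8.20 and 8.30 in SW620, at 8.16 and 8.32 in HT29 and at 8.36 and 8.31 in HCT116. Its mean difference was 0.04 ± 0.10 (SD, n = 4). IRF1 was higher in all 4 lines, whereas IRF7 was lower in 3 and IRF9 was higher in 2.

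The differences were not spread evenly over the lines. The members' median difference was highest in SW620 at 0.26, then HT29 at 0.22 and COLO741 at 0.17, and it was -0.01 in HCT116, from 1 array per population and so without a test. At least 1.5-fold higher on the array labelled ABCB5-positive were 5 of 34 members in COLO741 (IFI44, OAS1, OAS3, HERC5 and HERC6), against 4.02% of all genes. In SW620 there were 7 (IFI44, IFI16, IFITM1, HERC5, HERC6, IFIH1 and SAMD9L), against 1.79%. In HT29 there were 4 (IFI44, IFIT1, IFIT3 and DDX60), against 1.24%, and in HCT116 IFIT2 was the only one, against 0.290%. Both arrays lay below 7.50 for 4 of the 7 in SW620 (IFI44, IFI16, HERC5 and SAMD9L), for IFI44 and DDX60 in HT29 and for IFIT2 in HCT116, so that these folds rest on values not above background. The SW620 median was 0.10 with the stricter filter. No member was at least 1.5-fold lower in any line, against 0.142% of all genes in HCT116, 0.384% in HT29, 0.639% in SW620 and 1.61% in COLO741.

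**Figure D3:**
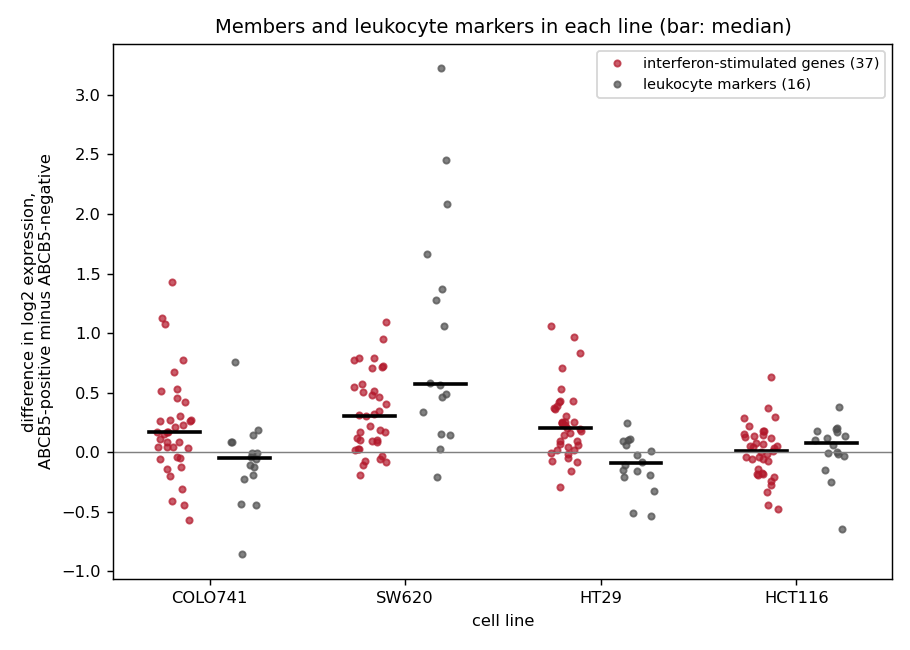
Differences in log2 expression, ABCB5-positive minus ABCB5-negative, of the interferon-stimulated genes with a probe set and of the 16 measured leukocyte markers in each of the 4 lines, with 1 point per gene and a bar at the median. The leukocyte markers stand at a median of 0.57 in SW620 and near 0 in the other lines, while the medians of the 37 interferon-stimulated genes lie above 0 in COLO741, SW620 and HT29 and near 0 in HCT116.

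SW620 was the line of the largest member median, and its array labelled ABCB5-positive was also the one with higher leukocyte markers. Without SW620 the member median was 0.08. Of the 10 members at an unadjusted p under 0.05, 5 remained so without SW620 (IFI44, IFI6, IFIT2, OAS2 and XAF1) and 6 without COLO741 (the same 5 and OAS1). With both lines left out, an alternative added after the data were seen, the remaining lines HT29 and HCT116 gave 3 of the 10 (IFIT2, OAS2 and XAF1).

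Members with and without an ISRE core in their promoter window were described side by side. The 18 tested members with a core had a median difference of 0.14, with 16 above 0, and 5 had an unadjusted p under 0.05. The 10 without a core had a median of 0.19, with all 10 above 0, and 3 had an unadjusted p under 0.05. Of all genes tested, 48.0% had a mean difference above 0 and 4.40% an unadjusted p under 0.05. IFI44, IFI6 and HERC5, whose promoters are printed above, are among those with a core, and XAF1, OAS1 and HERC6 among those without.

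The second comparison was among the lines, over both populations. The lines differed far more than the sorted populations, and a few members were near background in some lines and bright in others. By limma's F-test with the population as covariate, 31 of 34 members (91.2%) differed among the lines, against 67.2% of all genes. The other 3 were OAS3, IFITM1 and IRF9. The range of the 4 line means exceeded 2 in 13 members (38.2%), against 12.9% of all genes. The counts of 31 and 13 both include IFI16, SAMD9L and IFI44. These passed the filter on dim genes only through COLO741, so that a wide range was part of their choice. Since both arrays of a line are parts of 1 culture, these tests compare these cultures, and differences between lines as such have a single value per line.

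Between pairs of lines, 23 members (67.6%) were called for COLO741 and HT29, against 45.3% of all genes. For COLO741 and HCT116 there were 22 (64.7%), against 45.9%, and for COLO741 and SW620 20 (58.8%), against 47.0%. There were 21 (61.8%) for SW620 and HT29, against 40.0%, and 19 (55.9%) for HT29 and HCT116, against 39.0%. For SW620 and HCT116 there were 15 (44.1%), against 38.9%, near the share of all genes. The highest line mean lay in COLO741 for 13 members (38.2%), against 25.0% of all genes. That count includes IFI44, IFI16 and SAMD9L, which passed the filter on dim genes only through COLO741. Part of it, and part of the counts for the pairs with COLO741, therefore follows from the filter.

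**Figure D4:**
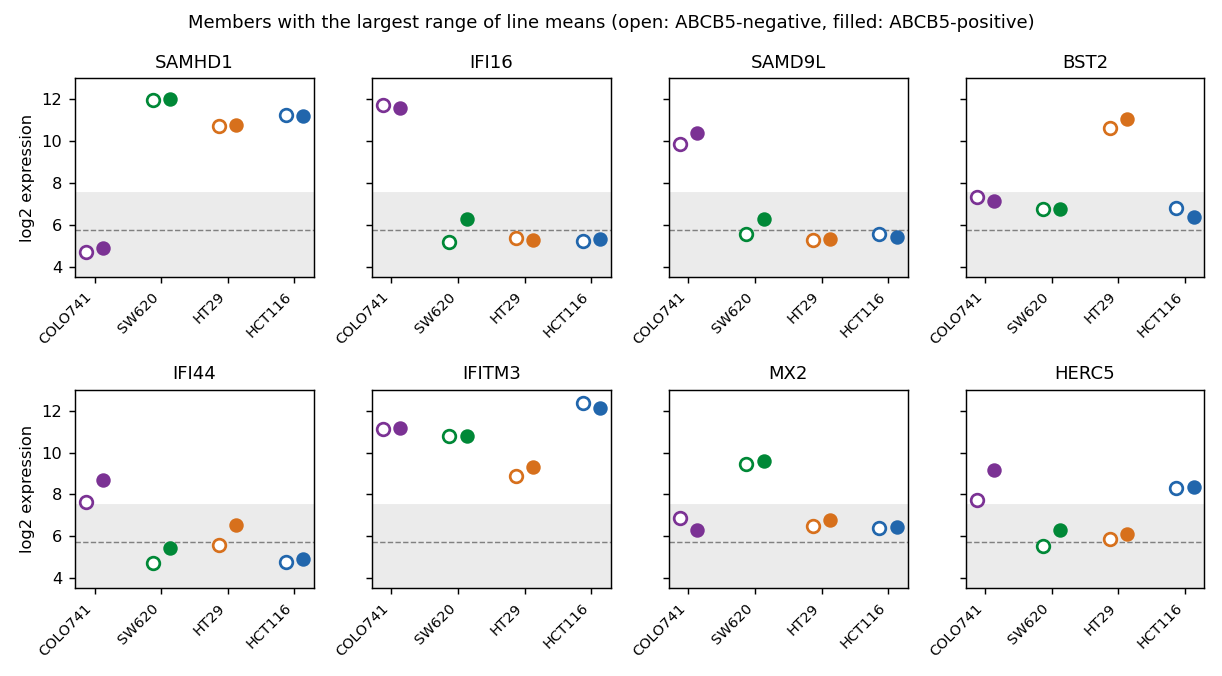
Log2 expression on each of the 8 arrays for the 8 members with the widest range of line means, with open and filled points for the ABCB5-negative and ABCB5-positive array of each line the background median of 5.73 as a dashed line and the range up to 7.50 shaded. SAMHD1 is near 4.8 in COLO741 and above 10.7 in the other lines, and IFI16 and SAMD9L show the opposite order.

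SAMHD1, an enzyme that depletes the building blocks of DNA and so restricts retroviruses, was at 4.71 and 4.88 in COLO741, at 11.99 and 12.00 in SW620, at 10.75 and 10.79 in HT29 and at 11.26 and 11.22 in HCT116. COLO741 lay at background and apart from the 6 other arrays. Taking 7.50 as the floor for a dim value, COLO741 was at least 9.65-fold lower than HT29, the next line in order (adjusted p = 2.4e-07 by limma). The steps from SW620 to HCT116 (0.75, adjusted p = 0.0010) and from HCT116 to HT29 (0.47, adjusted p = 0.0070) also passed the test by limma.

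IFI16 showed the reverse, at 11.72 and 11.60 in COLO741, 5.17 and 6.27 in SW620, 5.36 and 5.28 in HT29 and 5.21 and 5.33 in HCT116. COLO741 was at least 17.9-fold above the floor of 7.50, and the 3 other lines were all dim. IFI16 passed the filter on dim genes only through COLO741, and no test of this line is given. SAMD9L, a brake on growth and on viral translation, was at 9.87 and 10.40 in COLO741, at 5.58 and 6.30 in SW620, at 5.28 and 5.30 in HT29 and at 5.58 and 5.44 in HCT116. COLO741 was at least 6.23-fold above the floor, and SAMD9L too passed the filter only through this line. Its neighbour of similar sequence, SAMD9, did not share this order, with line means between 8.86 and 11.01 and the highest in HT29.

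BST2, or tetherin, which holds budding viruses at the cell surface, was bright in HT29 only. It was at 10.65 and 11.08 in HT29, at 7.34 and 7.14 in COLO741, at 6.78 and 6.75 in SW620 and at 6.80 and 6.35 in HCT116. HT29 was at least 10.3-fold above the floor, under which the other lines lay (adjusted p = 1.7e-05 by limma against COLO741, the next line), and the steps among the other 3 did not pass the test. MX2 was bright in SW620 only, at 9.43 and 9.60, against 6.89 and 6.32 in COLO741, 6.49 and 6.80 in HT29 and 6.40 and 6.44 in HCT116. SW620 was at least 4.04-fold above the floor (adjusted p = 9.4e-05 by limma against HT29, the next line), and the 3 other lines did not differ in neighbouring steps. MX1, its relative, had line means within 6.77 to 7.54.

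IFI44 had its highest mean in COLO741, at least 1.59-fold above the floor, and it passed the filter only through this line. Its values in the other lines were all below 7.50 and are not set in order. HERC5 had a high and a low pair of lines. COLO741 and HCT116 had means of 8.47 and 8.32 and did not differ by the test (adjusted p = 0.73 by limma), and HCT116 was at least 1.76-fold above HT29, which lay under the floor (adjusted p = 0.0015). IFITM3, which blocks viral fusion in endosomes, was at 12.36 and 12.15 in HCT116, at 11.14 and 11.17 in COLO741, at 10.78 and 10.81 in SW620 and at 8.90 and 9.32 in HT29. HCT116 exceeded COLO741 by 1.09 (adjusted p = 0.0013 by limma) and SW620 exceeded HT29 by 1.69 (adjusted p = 0.00024), whereas the step between COLO741 and SW620 did not pass the test. This probe set can share signal with near-identical IFITM genes.

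Of the factors, IRF1 was lowest in COLO741, which lay below HCT116 by 0.71 (adjusted p = 0.0011 by limma). IRF7 was highest in HT29, by 0.56 above HCT116 (adjusted p = 0.0027 by limma), and its other neighbouring steps did not pass the test. IRF9 had line means within 0.10 of each other, and none of its neighbouring steps passed the test.

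**Figure D5:**
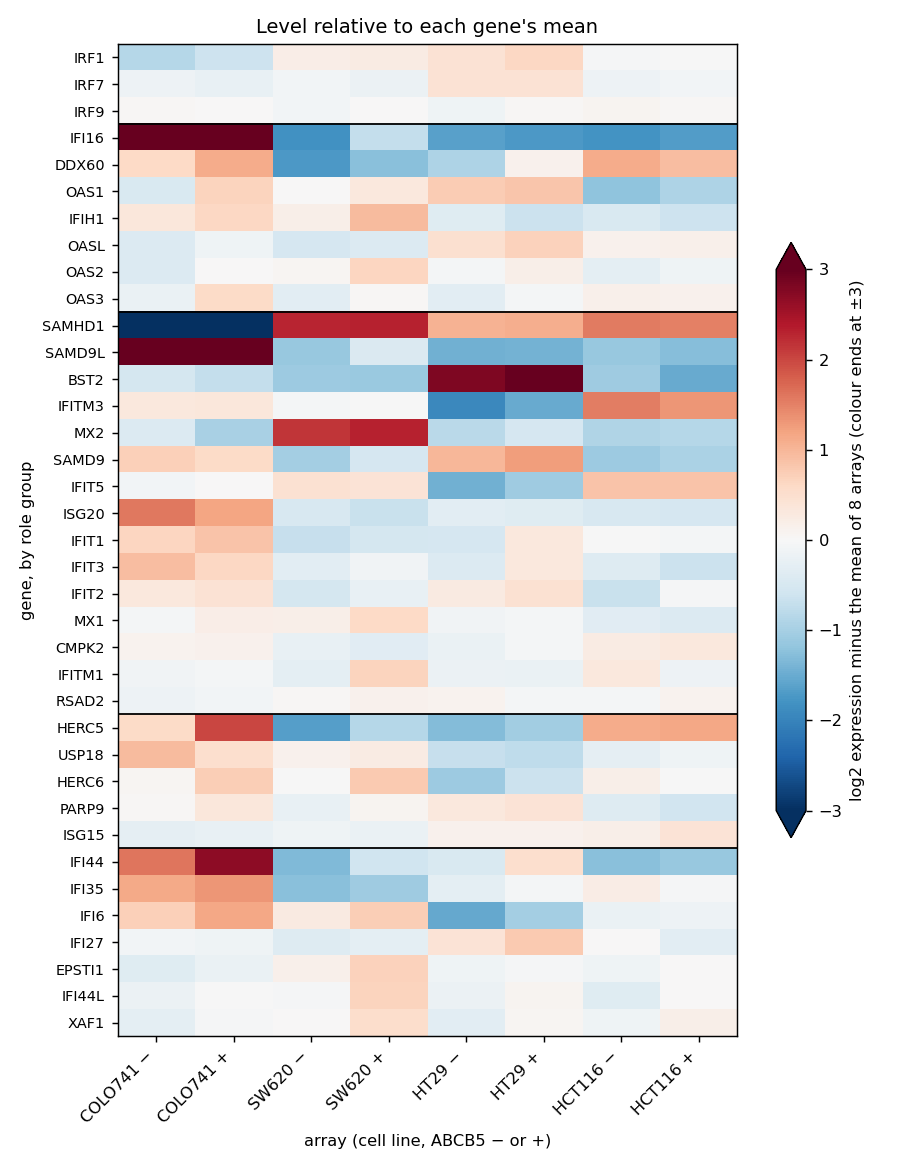
Log2 expression of each gene on the 8 arrays after subtraction of the gene's mean over the arrays, drawn as a colour map with 1 row per gene, 1 column per array and colours that end at 3 in either direction. The 2 arrays of a line resemble each other in most rows, and COLO741 stands out by its low SAMHD1 and its high IFI16 and SAMD9L.

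COLO741 was also set against the mean of the other 3 lines, because its markers went against its label. Of 34 members, 23 (67.6%) were called by limma, against 49.7% of all genes. Of these, 16 were higher in COLO741, against 23.7% of all genes, and 7 were lower, against 26.0%. Among those higher were ISG20 by 1.85, IFI35 by 1.64 and IFI6 by 1.25, and among those lower were SAMHD1, IRF1 by -0.98 and ISG15 by -0.33. In 11 members (32.4%) the COLO741 arrays did not overlap the 6 others, against 34.6% of all genes, so this count is near the background. IFI44, IFI16 and SAMD9L, all higher, passed the filter only through COLO741, so that their calls say nothing beyond their choice. With 1 mean per line as the unit, 3 of 34 members were called by limma, against 1.52% of all genes, and among them only SAMHD1 (adjusted p = 0.0451) did not depend on COLO741 to pass the filter. That fit sets a single COLO741 value against 3 and assumes that it varies like the others.

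Whether the sort difference itself differed between COLO741 and the other lines was tested on the 4 per-line differences, where the single COLO741 difference was assumed to vary like the others. None of the 34 members was called, against 0.337% of all genes, and 5 had an unadjusted p under 0.05 (14.7%), against 13.6% of all genes, a share near the background. The lowest adjusted p was that of OAS1, whose difference was 1.13 in COLO741 and 0.22 in the mean of the others (0.107 by limma). MX2 went the other way, with -0.57 in COLO741 and 0.17 in the others (adjusted p = 0.151 by limma). HERC5 differed by 1.43 in COLO741 and by 0.36 in the others (adjusted p = 0.235 by limma).

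The rest of the pathway was described through a second list of 87 genes, of which 82 had a probe set and 66 were tested. Between the populations, 0 were called by limma after adjustment, while 5 had an unadjusted p under 0.05 and were higher and 1 was lower, which together is 9.09% against 4.40% of all genes. The median of the list was 0.03, with 41 genes above 0 and 25 below. The 5 were RIGI, TLR3, PTPN6, GBP2 and LY6E, and the 1 was PLSCR1.

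Of 16 ligand genes, 11 were below the filter, and none of the ligands had an unadjusted p under 0.05. The interferon receptors and the kinases and STATs likewise had 0 of 6 and 0 of 4 at that level. Among the sensors, RIGI, which detects viral RNA in the cytoplasm, differed by 0.33 ± 0.32 and TLR3, which detects double-stranded RNA in endosomes, by 0.44 ± 0.44 (SD, n = 4), and both were lower without COLO741, at 0.20 and 0.26. GBP2, a GTPase of the guanylate-binding family, differed by 0.34 ± 0.22 and LY6E by 0.25 ± 0.23 (SD, n = 4), the latter by 0.15 without HT29. The negative regulator PTPN6, a phosphatase, differed by 0.15 ± 0.03 and PLSCR1 by -0.20 ± 0.14 (SD, n = 4). Among the lines, 52 of the 66 differed by the F-test, against 67.2% of all genes. COLO741 was called above the mean of the other lines in 21, against 23.7% of all genes, and below it in 13, against 26.0%. TLR3 was at 9.99 and 10.99 in COLO741 and between 6.32 and 8.73 elsewhere. PTPN6 was at 7.29 and 7.45 in COLO741, under the floor, and between 9.98 and 10.68 elsewhere, so that COLO741 was at least 5.95-fold lower than the next line. CGAS, the sensor of cytoplasmic DNA, was at 10.51 and 10.36 in HT29 and between 5.03 and 5.73 elsewhere. It passed the filter on dim genes only through HT29, so that its place among the 52 and the 13 follows in part from the filter.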

How the data were processed

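Expression was measured on 8 arrays, 2 sorted populations of each of 4 lines. The deposited values are log2 expression, 1 per probe set and array, read as log2 from their range of 2.99 to 15.24. They were made with Affymetrix Expression Console, per the submitters' processing notes; how they were summarised and normalized is not given in the sources used here. Array medians lay between 8.03 and 8.10, and the values were used as deposited. The number of arrays limits the precision.

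Of 33297 probe sets, 19460 named 1 gene through the platform annotation, 1754 named several and were not used, and 12083 were not listed. Symbols were updated through RefSeq identifiers for 19429 of them. The probe set of highest mean stood for each of the 769 genes with several. Genes with a mean below the median of 360 olfactory receptor probe sets (1507) were left out of the tests.

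The comparison of the populations used limma 3.58.1 (R 4.3.3), with a fixed block for the cell line, two-sided tests and Benjamini-Hochberg adjustment over 16910 genes at 0.05. The block rests on the labels, where a replicate is a line; as a check of the pairing, same-line arrays deviated together from the means of their groups, with correlations of 0.932 to 0.963. Residual degrees of freedom were 3, and moderation added 3.44. Lines were compared with the population as covariate. p-values measure the spread between these samples, part of which may be technical. The scripts were tested on simulated data. For SW620 the sample labels were followed, although the design text of the series has SW480 in its place.

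Named in full are the 8 members of smallest unadjusted p between the populations, the 8 of widest range of line means and the transcription factors; others are named where highest or lowest of their role group, or chosen after their values were seen (as in the counts by line). The members, the pathway list, the marker lists and their roles were chosen with earlier results of these data known. Alternatives were the filter, quantile and median scaling, every probe set, the block, leaving out each line and 1 mean per line.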

Additional observations from a re-analysis of the deposited data

Results flagged for a closer look

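Values that stood apart from the 3 others of their group of 4 were listed by Dixon's criterion, by the gap to the nearest other value as a share of the group's range. This held in 20 of 111 groups of levels or differences, where chance gives about 1 in 20. It is 18% of the members' groups, against 8.13% of the groups of all genes. For levels it held in 17 of 74 groups (23%), against 8.88% for all genes. For sort differences it held in 3 of 37 (8.11%), against 6.63%, a share near the background. Levels are log2, and no explanation of any of them was tested.

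COLO741 stood apart upwards in IFI16, at 11.72 in the ABCB5-negative and 11.6 in the ABCB5-positive group, in ISG20, at 10.2 and 9.789, in IFIT3, at 8.67 in the ABCB5-negative group, and in SAMD9L, at 9.874 in the ABCB5-negative group. COLO741 stood apart downwards in SAMHD1, at 4.713 in the ABCB5-negative and 4.882 in the ABCB5-positive group.

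SW620 stood apart upwards in MX2, at 9.429 in the ABCB5-negative and 9.6 in the ABCB5-positive group. In the ABCB5-positive group alone it did so in IFI44L, at 6.113, and in IFITM1, at 7.519. The sort difference of EPSTI1 was highest there, at 0.5448. The ABCB5-positive SW620 array is the one with higher leukocyte markers.

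HT29 stood apart upwards in BST2, at 10.65 in the ABCB5-negative and 11.08 in the ABCB5-positive group, in IFI27, at 8.545 in the ABCB5-positive group, and in IRF7, at 9.475 in the ABCB5-negative group. It stood apart downwards in HERC6, at 7.391 in the ABCB5-negative group. In HCT116 the sort difference stood apart downwards in IFI6, at 0.0475, and in IFI35, at -0.2431.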

How the results depend on the processing

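The number of members at an unadjusted p under 0.05 between the populations was 10 in the reported setting. It was 4 of 22 tested with a filter at the 95th percentile of the background, 1 with no replicate block, 4 without COLO741 and SW620 together, and 5 to 12 with single lines left out. No member was called after adjustment in any setting. The member median was 0.08 to 0.21 with single lines left out, and the SW620 median was 0.10 with the stricter filter, against 0.26. For COLO741 against the other lines the count of 23 became 15 of 22 with the stricter filter, 3 with 1 mean per line and 20 to 23 with single lines left out. The count of 31 members that differ among the lines became 20 of 22 with the stricter filter, which tests fewer genes. Against the mean of the other lines COLO741 turned from lower to higher for BST2 without HT29 (range over single lines left out -1.58 to 0.57) and for MX2 without SW620 (range -1.47 to 0.073), and from higher to lower for IFITM3 without HT29 (range -0.36 to 1.21). BST2, IFI44, IFITM3, MX2 and HERC5 lost the COLO741 call with 1 mean per line, which leaves fewer samples. The ABCB5 difference turned from -0.25 to 0.088 without COLO741 and ranged down to -0.43 with single lines left out. The 5 members with every array below 7.50 have only dim values, and differences there are limited by the background.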
